A study of Macaca mulatta with 24 samples.

Results

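The 3 carbonic anhydrases CA1, CA2 and CA4 were followed in whole blood of rhesus macaques before and after total body irradiation. Each of them was represented by 1 probe, so that they made up 3 of the 20 carbonic anhydrase probes and 3 of the 43603 probes on the array. The array named 10 other carbonic anhydrases and 15046 genes in all. CA1, CA2 and CA4 were chosen by their log2 levels over the days on these same arrays, the first pair as low after irradiation and CA4 as high late, so their levels by day are a description and no test of them is given. The gene name column of the scanner output names CA1 and CA2. It does not hold CA4, whose probe was named here by matching its transcript accession to RefSeq.

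Blood came from 7 adult macaques of Chinese origin, 4 males (animals 1 to 4) and 3 females (animals 5 to 7), aged 5 to 10 years at irradiation. The pre-irradiation group held 7 arrays from unirradiated blood of these animals, the day 3 group 4 arrays (animals 1, 2, 4 and 7), the day 5 group 6 arrays (all but animal 5) and the day 7 group 7 arrays, each after a single dose of 4 Gy. Every irradiated sample came from an animal that was its own control, and no sham-irradiated group was analysed here, so that time, repeated bleeding and irradiation cannot be told apart. The sample labels name X-rays and put the pre-irradiation blood at day 0, whereas the methods describe a 60Co gamma source and blood drawn some days before exposure. RNA of all groups was depleted of globin transcripts and hybridized, with Cy3 label, to arrays of a rhesus design.

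Carbonic anhydrases are zinc enzymes that interconvert carbon dioxide and water with bicarbonate and a proton. CA1 and CA2 are cytosolic and are among the most abundant proteins of the red cell after haemoglobin, where CA2 has the higher turnover and CA1 the higher abundance. There they load carbon dioxide from the tissues as bicarbonate, which leaves the cell through the band 3 anion exchanger encoded by SLC4A1. CA4 is an extracellular enzyme tethered to the cell surface by a glycosylphosphatidylinositol (GPI) anchor, known best from capillary endothelium of the lung and from the kidney, and its transcript is also found in blood neutrophils.

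In the rheMac2 build named in the scanner output, the probes are 60 bases long. The CA1 probe lies at chr8:87856193-87856252 on the minus strand with a GC content of 21.7%, and the CA2 probe at chr8:88005426-88005485 on the plus strand with 38.3%. The CA4 probe lies at chr16:46392320-46392379 on the minus strand with 41.7%. The files place their starts at bases 939, 1076 and 1435 of the transcripts, and no annotation of that build was used here to say whether these bases are coding. The first 30 bases of the CA4 probe are shown because that probe carries the late change and is not named in the gene name column. No base is in capitals, since no motif was searched.
CA4 probe, bases 1 to 30: ccagtccttaggcttcccaggtgggacttt

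Between 48.3% and 61.2% of probes were well above background on an array. Precision is limited by how many arrays each group holds. The arrays were scanned in 2 sessions. Session 1 held 6 pre-irradiation and 6 day 7 arrays, and session 2 held pre-irradiation animal 5, day 7 animal 5 and every day 3 and day 5 array. The labelled sex matched 4 Y-linked genes on 24 of 24 arrays. The day 7 array of animal 4 stood apart. After the mean of each probe was removed, its correlation with the pre-irradiation mean was 0.10, against −0.45 to −0.11 for the other day 7 arrays, and its mean level of red cell genes was 11.20 on the log2 scale, against 7.74 to 10.23. The day 7 values of CA1, CA2 and CA4 and the day 7 counts of the 2 main gene lists are therefore given with and without it, as are other day 7 values and counts where leaving it out changed a call.

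Levels below are log2 of the processed signal after normalization to the median array, and changes are differences between group means on that scale. The standard errors (SE) of changes, also in the comparison of the sexes, treat the arrays as independent although the same animals were sampled repeatedly. Differences within animals are given separately. CA1 was dim before irradiation and near or below the background after it. In whole blood, fewer cells of a type and less RNA per cell cannot be told apart, here and in what follows. Before irradiation its log2 levels in animals 1 to 7 were 6.78, 6.51, 5.61, 7.49, 8.42, 7.86 and 7.45 (mean 7.16 ± 0.93, SD, n = 7), and 6 of these 7 arrays were well above background, animal 3 being the exception. At day 3 the levels were 2.95, 3.68, 3.35 and 3.96 in animals 1, 2, 4 and 7 (mean 3.49 ± 0.44, n = 4). At day 5 they ran from 2.40 through a median of 3.22 to 4.15 (mean 3.28 ± 0.70, n = 6). None of these 10 arrays was well above background, so that CA1 has only a bound there. With the scanner's background subtraction it was at least 5.22-fold lower at day 3 and at least 5.64-fold lower at day 5. For this bound the pre-irradiation mean, animal 3 included, was set against the CA1 signal. That signal was raised on each array to the dimmest signal that was still well above background. With another background correction (normexp) the log2 differences were −0.79 and −0.31, so that the bound does not hold there. The bounds given for other genes below were also computed with the scanner's subtraction.

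At day 7 the CA1 levels were 3.51, 4.26, 2.67, 5.18, 4.65, 2.52 and 2.66 in animals 1 to 7 (mean 3.64 ± 1.08, n = 7). The array of animal 5, at 4.65, was the 1 of 7 well above background, and it came from the animal with the highest CA1 level before irradiation. The difference between the group means was −3.52, and −3.78 without the day 7 array of animal 4 (“without animal 4” in what follows), but with 6 of 7 arrays not well above background its size is not measured and no fold is given. No array after irradiation reached the lowest pre-irradiation level (0 of 4, 0 of 6 and 0 of 7). The same held for 12.4% of all probes at day 3, for 8.64% on day 5 and for 5.91% on day 7, and nothing is read from it because CA1 was chosen for this contrast. Among the days after irradiation the order of CA1 levels is not measured, since 16 of 17 arrays were not well above background.

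CA2 was bright and well above background on 24 of 24 arrays, so that its levels could be compared on every day. Before irradiation its log2 levels were 12.93, 10.47, 11.02, 11.60, 11.22, 10.80 and 11.70 in animals 1 to 7 (mean 11.39 ± 0.80, n = 7). Animal 1 was the highest, at a normalized signal of 7823 against 1422.9 in animal 2, the lowest. At day 3 the levels were 9.56, 9.99, 9.78 and 8.94 in animals 1, 2, 4 and 7 (mean 9.57 ± 0.45, n = 4), a change of −1.83 (SE 0.38), or 3.54-fold lower. At day 5 they were 9.08, 9.08, 9.34, 8.64, 8.83 and 8.93 in animals 1, 2, 3, 4, 6 and 7 (mean 8.98 ± 0.24, n = 6), 5.31-fold lower than before irradiation. The 6 animals at day 5 thus lay within a narrower range than before irradiation.

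At day 7 the CA2 levels were 7.80, 8.17, 7.61, 10.88, 8.27, 8.24 and 7.90 in animals 1 to 7 (mean 8.41 ± 1.12, n = 7). Of the 7, 6 lay between 7.61 and 8.27 and below every day 5 array, and animal 4, at 10.88, lay inside the pre-irradiation range. The change was −2.98 (SE 0.52), or 7.90-fold lower, and −3.39 without animal 4. Every array lay below all pre-irradiation arrays at day 3 (4 of 4) and at day 5 (6 of 6), and 6 of 7 did at day 7. The group means stood in the order of sampling, highest before irradiation and lowest at day 7, and the ranges of days 3 and 5 overlapped.

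CA4 went the other way. It was well above background on 24 of 24 arrays, dim before irradiation and among the bright probes of some animals at day 7. Before irradiation its log2 levels were 6.83, 6.61, 7.15, 6.29, 7.86, 8.18 and 6.62 in animals 1 to 7 (mean 7.08 ± 0.70, n = 7), normalized signals of 78.4 to 291. At day 3 the levels were 10.27, 8.62, 9.98 and 8.68 in animals 1, 2, 4 and 7 (mean 9.39 ± 0.86, n = 4), a change of 2.31 (SE 0.51), or 4.96-fold higher. At day 5 they were 10.44, 9.82, 9.75, 8.23, 8.28 and 9.82 in animals 1, 2, 3, 4, 6 and 7 (mean 9.39 ± 0.91, n = 6), the same mean as at day 3 and again 4.96-fold higher. The lowest day 5 array, animal 4 at 8.23, was just above the highest pre-irradiation array, animal 6 at 8.18.

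At day 7 the CA4 levels were 12.73, 12.87, 11.33, 8.99, 13.04, 11.07 and 14.63 in animals 1 to 7 (mean 12.09 ± 1.81, n = 7). Animal 7 reached a normalized signal of 25351.8 and animal 4 stayed at 507.3, the widest spread of the 3 genes in any group. The change was 5.01 (SE 0.73), or 32.3-fold higher, and 5.53 without animal 4. All arrays of each day lay above all 7 pre-irradiation arrays, as they did for 8.63% of all probes at day 3, 5.65% on day 5 and 2.58% on day 7, from which nothing is read. Of the 7 day 7 arrays, 6 lay above every day 3 and day 5 array, animal 4 being the exception. The days were ordered pre-irradiation, then days 3 and 5 with the same mean, then day 7.

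**Figure D1:**
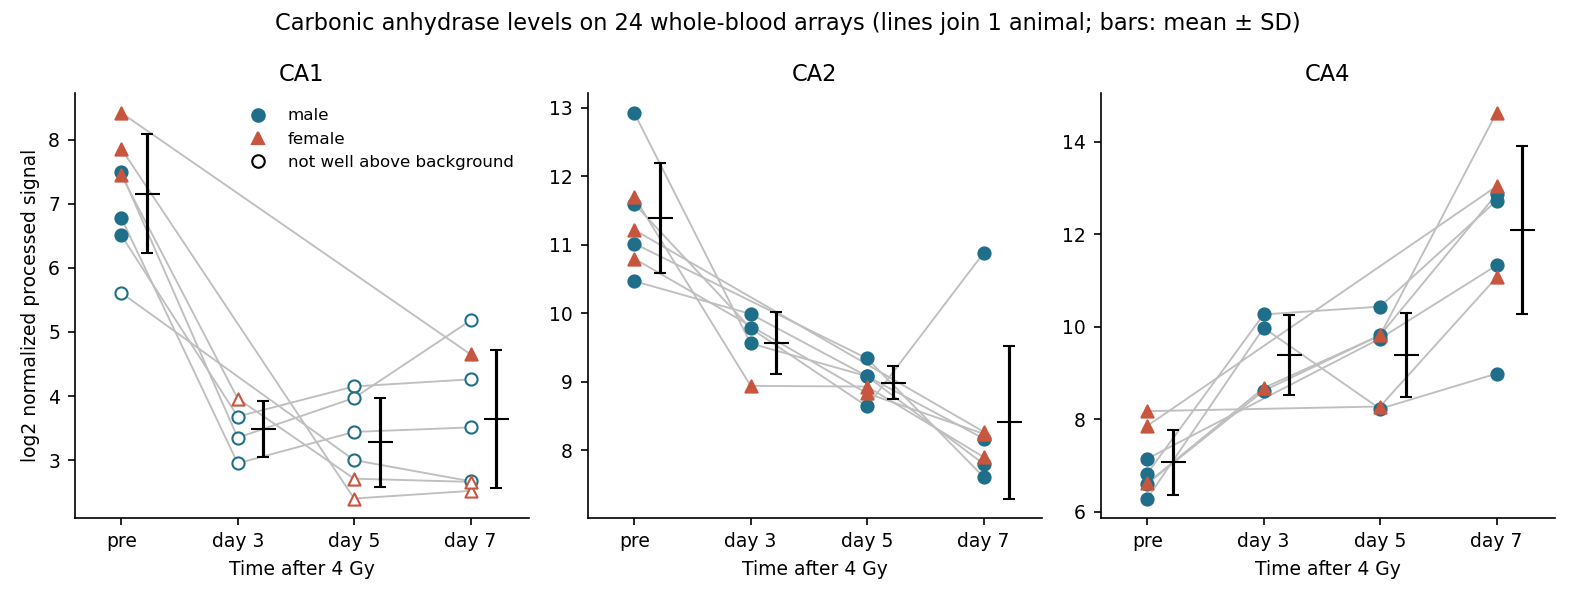
Log2 normalized processed signal (vertical axis) of CA1, CA2 and CA4 before irradiation and at days 3, 5 and 7 after 4 Gy (horizontal axis). Circles are males, triangles females, open symbols arrays not well above background, grey lines join the arrays of 1 animal, and bars give the mean ± SD. CA1 is open on 16 of 17 arrays after irradiation, CA2 is lowest at day 7 except in animal 4 (10.88), and CA4 reaches 8.99 to 14.63 at day 7.

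Within animals the differences had the same direction as the group means when each day was set against pre-irradiation. CA4 was higher than before irradiation in 4 of 4 animals at day 3, by 2.02 to 3.69 on the log2 scale, and in 6 of 6 at day 5, by 0.10 (animal 6) to 3.61 (animal 1). At day 7 it was higher in 7 of 7, by 2.69 in animal 4, 2.89 in animal 6, 4.18 in animal 3, 5.18 in animal 5, 5.89 in animal 1, 6.27 in animal 2 and 8.01 in animal 7. From day 5 to day 7 it was higher in each of the 6 animals sampled on both days, by 0.76 (animal 4) to 4.81 (animal 7), with a median of 2.54. From day 3 to day 5 it was higher in 3 animals and lower in animal 4, with a difference of −1.75. Animal 4 is also the animal whose CA4 was lower at day 7 than at day 3, with a difference of −1.0.

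CA2 was lower than before irradiation in every animal on every day. Its differences ran from −3.38 (animal 1) to −0.48 (animal 2) at day 3, from −3.85 (animal 1) to −1.39 (animal 2) on day 5, and from −5.13 (animal 1) to −0.72 (animal 4) on day 7. From day 5 to day 7 it was lower in 5 of 6 animals, with differences of −1.73 to −0.59, and was 2.24 higher in animal 4. CA1 was lower than before irradiation in every animal too, and its differences between the later days are differences between signals near the background. Animal 5 is the 1 animal with both its arrays in scan session 2, and its day 7 differences were −3.76 for CA1, −2.95 for CA2 and 5.18 for CA4. On the session 1 arrays alone, 6 before irradiation and 6 at day 7, the changes were −2.99 for CA2 and 4.99 for CA4. These arrays make up most of the pooled ones and session 2 adds 1 animal, so that a session effect cannot be judged from them. None of the 6 day 7 arrays of session 1 was well above background for CA1.

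Within session 2, days 3 and 5 can be compared with a single pre-irradiation array, that of animal 5, which had the highest CA1 level and the second highest CA4 level before irradiation. Against it CA2 was −1.66 at day 3 and −2.24 at day 5, and CA4 was 1.53 on both days. The directions were those of the pooled values. No size can be measured for CA1, which was not well above background on these 10 arrays. How much of the size of the day 3 and day 5 changes comes from the scan session was not tested, as 1 pre-irradiation array has no spread. With a normexp background (offset 50) in place of the scanner's own subtraction, the changes at days 3, 5 and 7 were smaller. They were 0.25, 1.19 and 3.96 for CA4 and −1.47, −1.90 and −2.32 for CA2. The differences of CA1, which rest on dim signal, were −0.79, −0.31 and −1.18 there. The offset is added to every signal, so that its part and that of the background method cannot be told apart.

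The day 7 change was compared between the sexes, which the choice of genes did not use. In a limma interaction fit over 26958 probes (4 males and 3 females, each before irradiation and at day 7), 0% of probes (0 of 26958) passed an adjusted p under 0.05, and 2356 had an unadjusted p under 0.05. The CA4 change was 4.76 in males and 5.36 in females, a difference of 0.60 (SE 1.28, adjusted p = 0.916). The CA2 change was −2.89 in males and −3.10 in females, a difference of −0.21 (SE 1.0, adjusted p = 0.966). The CA1 change was −2.69 in males and −4.63 in females, a difference of −1.94 (SE 0.90, adjusted p = 0.571). It rests on day 7 signals near the background, with 1 of 7 arrays well above it. Its size is therefore not measured, and the test cannot decide whether the sexes differ in CA1. The sign of the CA2 and CA4 differences turned when the arrays of animal 4 (0.51 and −0.09) or animal 7 (0.14 and −0.72) were left out, and none of these tests shows that the sexes responded alike. By exact two-sided permutation of the animals (35 splits, smallest possible p = 0.0286), the pre-irradiation CA1 level was 7.91 in females and 6.60 in males (p = 0.0857, adjusted p = 0.513 over 6 tests). The other 5 comparisons of levels by sex, CA1 at day 7 and CA2 and CA4 before irradiation and at day 7, had p from 0.171 to 0.971 in the same exact test (adjusted p from 0.513 to 0.971). That of CA1 at day 7 rests mostly on signals not well above background too.

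The genes that work with carbonic anhydrases in handling carbon dioxide were taken as a list of 50: 12 other carbonic anhydrases, 13 red cell gas exchange partners and 25 transporters of bicarbonate, protons and monocarboxylates. A gene was tested when its brightest probe exceeded background clearly on 4 or more of the 24 arrays, as 31 of the 50 did. It counted as changed at an adjusted p under 0.005 in limma, each day being fitted with the 7 pre-irradiation arrays. At day 3, 8 of 31 changed (25.8%, against 13.5% of all named genes tested), and all 8 were lower. At day 5, 13 of 31 changed (41.9%, against 15.4%), 10 lower and 3 higher. At day 7, 8 of 31 changed (25.8%, against 9.86%), 7 lower and 1 higher. Among the 28 genes well above background on at least 1 pre-irradiation array the counts were 8, 12 and 7, with 0, 2 and 0 higher. Of all named genes, 7.58% were lower and 5.96% higher at day 3, 9.12% and 6.24% on day 5, and 7.18% and 2.67% on day 7. The median change of the list was −0.14, 0.05 and −0.41 on the 3 days, against −0.00, −0.00 and −0.01 for all named genes. The 3 comparisons share the 7 pre-irradiation arrays. This list and those below were chosen with earlier results of these data known, so that their shares are a description. Leaving out animal 1, 4 or 7 brought the day 3 count to 5, 3 and 5, and leaving out animal 1 or 7 brought the day 7 count to 5 and 4. With the slide or the scan session as a block, which rests on 1 pre-irradiation array, no gene of the list was called at day 3. With the session as a block 6 were called at day 5, whereas no slide holds both pre-irradiation and day 5 arrays, so that slide and group cannot be told apart there.

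Most of the falls were in genes of the red cell. AQP1, the water channel through which carbon dioxide can also pass, fell on each day, with log2 changes of −4.13 (SE 0.55), −6.10 (SE 0.44) and −5.37 (SE 0.74). BPGM, the enzyme that makes 2,3-bisphosphoglycerate and thereby lowers the oxygen affinity of haemoglobin, fell on each day too, with changes of −4.06, −5.24 and −4.37. SLC4A1, which exchanges bicarbonate for chloride across the red cell membrane, had called changes of −4.93 at day 3 (1 of 4 arrays well above background) and −4.78 at day 7 (2 of 7). These rest mostly on signals not well above background, so that their sizes are not measured. It was at least 18.5-fold lower at day 5, where none of 6 arrays was well above background. Without animal 4 the day 7 changes were −5.78 for AQP1, −4.81 for BPGM and −5.28 for SLC4A1, all called, the last again not a measured size. In the fit that blocked by animal, AQP1, SLC4A1 and BPGM were still called at day 3 (adjusted p = 0.00161, 0.00136 and 0.00161 in limma), and the list count at day 3 was 4 instead of 8, against 3.46% of all named genes in that fit.

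The globin genes HBA1, HBA2 and HBB, whose transcripts were depleted before hybridization and 2 of which are near-identical copies, had changes of −1.65, −1.95 and −1.15 on day 3. The changes were −3.50, −4.46 and −4.08 on day 5 and −2.62, −3.22 and −3.63 on day 7. Of these 9 values the 3 at day 5, HBA1 and HBA2 at day 3 and HBB at day 7 were called. When animals were blocked, the calls of HBA1 and HBA2 at day 3 (adjusted p = 0.0231 and 0.0202) and of HBB at day 7 (adjusted p = 0.00682) were lost. How much of the globin values reflects the depletion was not tested. RHAG, the Rh-associated glycoprotein that conducts gases and ammonia in red cells, was not called on any day: its change was 2.17 at day 3 (adjusted p = 0.00556), then 0.30 and −0.50. The 5 CYB5R genes of the list, cytochrome b5 reductases that include the enzyme that keeps haemoglobin reduced, had no call on any day. At day 7, without animal 4, HBA1 and HBA2 were called as well (−2.91 and −3.63), as were SLC4A3 (−2.13) and SLC26A8 (1.40), and the count for the whole list was 12 instead of 8, against 11.1% of all named genes.

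The transporters went both ways. SLC16A1, the monocarboxylate transporter of red cells and many leukocytes that carries lactate with a proton, fell on each day (−3.70, −4.59 and −3.23, the last −3.69 without animal 4). HVCN1, the voltage-gated proton channel of B cells and phagocytes, fell on each day as well, by log2 changes of −1.07, −1.63 and −2.51 (adjusted p = 0.000871, 6.4e-05 and 1.05e-05). SLC4A2, a widely expressed anion exchanger, fell at days 5 and 7 (−1.40 and −1.60). When animals were blocked, SLC16A1 (adjusted p = 0.00513) and HVCN1 (adjusted p = 0.0197) were not called at day 3, and SLC4A2 was not called at day 5 or 7 (adjusted p = 0.0106 and 0.00605). Among those that rose, SLC26A8, an anion transporter known from male germ cells, was 1.63 higher at day 5, and SLC9A7, a proton exchanger of the Golgi, was 1.43 higher on that day. SLC4A10, a sodium-coupled bicarbonate transporter known mainly from neurons, was the third gene counted as higher at day 5 and the 1 at day 7. It was well above background on no pre-irradiation array and was tested only because later arrays exceeded background, so that nothing is read from its calls. Its bound was at least 1.14-fold at day 7, with 5 of 7 arrays well above background, and none can be given at day 5, where the call was lost with animals blocked (adjusted p = 0.00549). SLC4A7, a sodium bicarbonate cotransporter expressed in phagocytes, had changes of 0.31, 0.43 and 0.61 with no call. SLC4A2 and SLC9A7 were named after their values were seen.

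Of the 12 other carbonic anhydrases, 10 were on the array and 6 were bright enough to test: CA3, CA5A, CA6, CA9, CA11 and CA13. CA7, CA10, CA12 and CA14 had probes that were too dim. The 1 member called was CA11, a carbonic anhydrase-related protein without catalytic activity, which fell at day 3 (−1.10, adjusted p = 0.00354) and day 5 (−1.02, adjusted p = 0.00219), with a value of −0.94 (adjusted p = 0.0102) at day 7. When animals were blocked it was called at days 5 and 7 (adjusted p = 0.00439 at day 7) and not at day 3 (adjusted p = 0.00966). Its levels were under the whole pre-irradiation range in 4 of 4, 6 of 6 and 6 of 7 samples. CA13, a cytosolic isozyme whose gene lies in the same cluster as CA1 and CA2, was not called in the unblocked fit, with changes of 2.59 on day 3 (adjusted p = 0.0147), 1.22 on day 5 (adjusted p = 0.152) and 0.21 on day 7. When animals were blocked it was called higher at day 3 (2.34, adjusted p = 0.00189) and at day 5 (1.37, adjusted p = 0.00385). The mitochondrial isozyme CA5A had changes of 0.86, 0.42 and −0.63, and the hypoxia-induced membrane isozyme CA9 had changes between −0.53 and −0.14, all without a call.

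**Figure D2:**
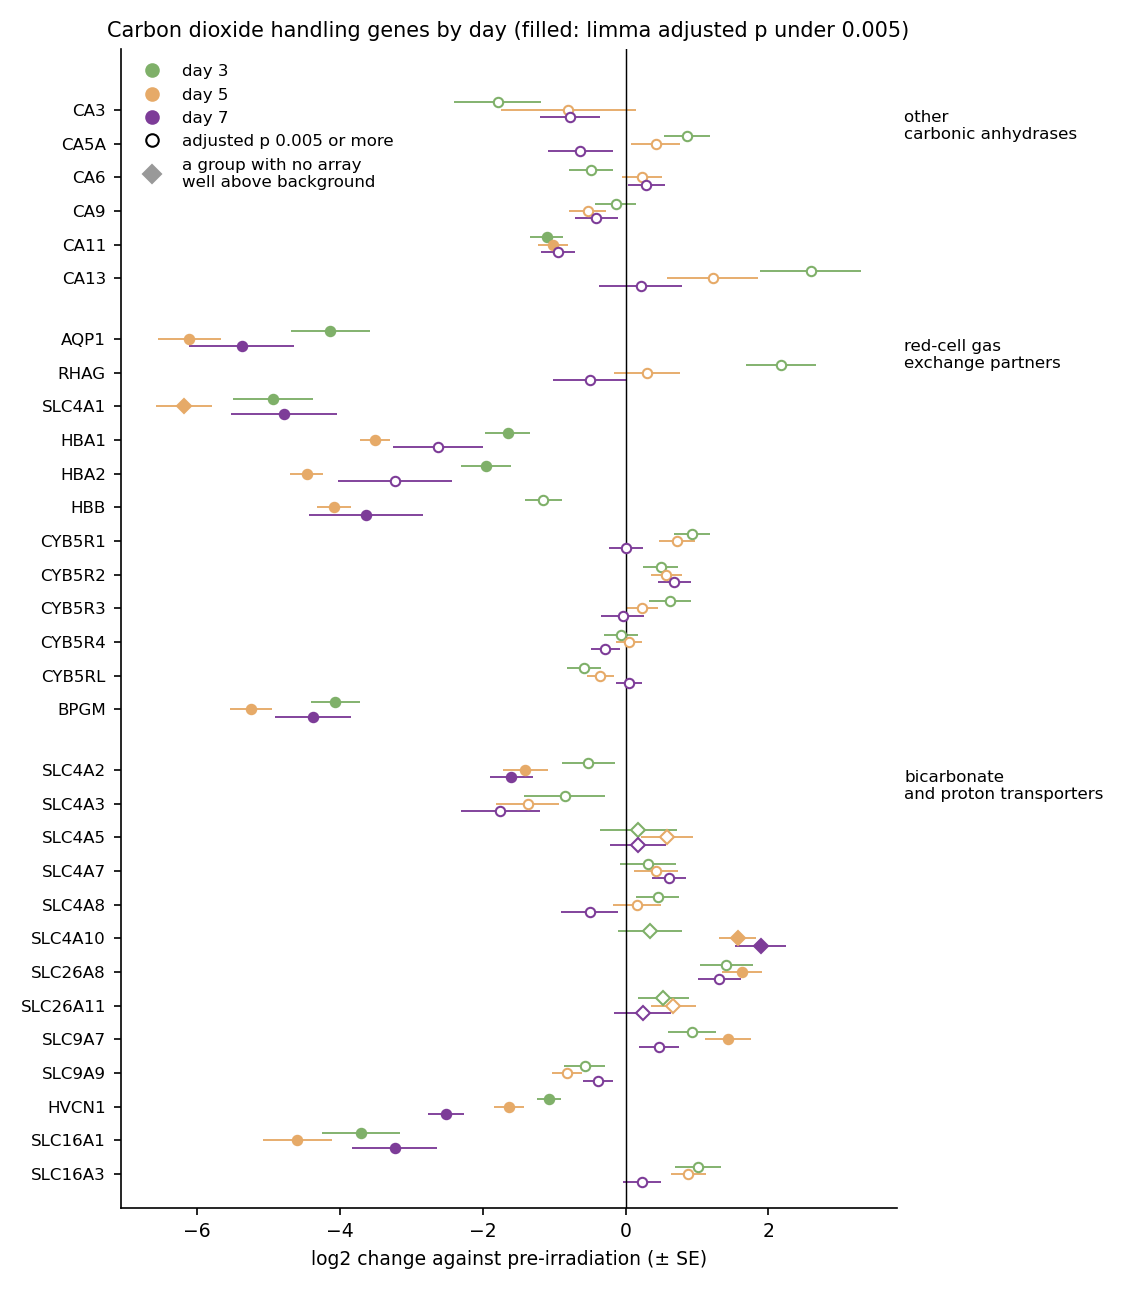
Log2 change against pre-irradiation (horizontal axis, ± SE) of the 31 carbon dioxide handling genes tested, by day. Filled points passed an adjusted p under 0.005 in limma. Diamonds mark values where 1 of the groups had no array well above background, so that the size is not measured (SLC4A1 at day 5 among them). AQP1, BPGM and SLC16A1 lie between −6.10 and −3.23 on each day, and CA13 and RHAG lie to the right at day 3 with open points.

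CA4 was also set beside 27 genes of other GPI-anchored proteins of leukocytes, of which 21 were on the array and 20 were tested. The neutrophil genes CD177, CEACAM6, CEACAM8, FCGR3B and TNFRSF10C were not among the named probes, so this list lacks much of the neutrophil surface. At day 3, 5 of 20 changed (25%, against 13.5% of named genes), 4 higher and 1 lower. At day 5 it was 3 of 20 (15%, against 15.4%), and at day 7 it was 2 of 20 (10%, against 9.86%). The shares at days 5 and 7 were thus close to those of all named genes. The median change was 0.56, 0.44 and 0.38. The day 3 count was 1, 2, 3, 1 and 2 without animals 1, 2, 3, 4 and 7, and 0 with the slide or the scan session as a block.

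The genes called higher at day 3 were MMP25, a membrane-anchored matrix metalloproteinase of neutrophils (1.49), VNN1, a pantetheinase (1.49), CD109, a protease inhibitor of platelets and activated T cells (1.82), and SEMA7A, a semaphorin of blood cells. SEMA7A was well above background on 2 of 4 day 3 arrays and on no pre-irradiation array, so that no fold can be given and nothing is read from its call. Without such genes the day 3 count was 4 of 17. MMP25 was higher at day 5 too (1.34). ART4, which carries the Dombrock blood group on red cells, was at least 4.21-fold, 4.55-fold and 4.30-fold lower at days 3, 5 and 7. It was well above background on 7 arrays, all before irradiation, and was tested only because of them, so that nothing is read from its calls. CD52, a small surface glycoprotein of lymphocytes and monocytes, fell at both later days (−2.22 and −1.86). When animals were blocked the day 3 count was 1, CD109, against 3.46% of all named genes, and the day 7 count was 4, against 8.13%, with PLAUR and VNN2 called higher beside CD52 and ART4.

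At day 7, where CA4 was highest, 3 of these genes had values near the threshold: VNN1 at 2.50 (adjusted p = 0.00505), PLAUR, the urokinase receptor, at 2.2 (adjusted p = 0.00718), and ALPL, tissue-nonspecific alkaline phosphatase, at 1.97 (adjusted p = 0.0075). They were named after their values were seen. Without animal 4 VNN1 and PLAUR were called higher, at 2.93 and 2.48 (adjusted p = 0.000456 and 0.00284 in limma). ALPL passed the threshold there as well (adjusted p = 0.000174), but it was well above background on none of the 7 pre-irradiation arrays and was tested only because later arrays exceeded background, so that nothing is read from its call. The day 7 count without animal 4 was 5 of 20 instead of 2, against 11.1% of all named genes, and 4 of the 17 genes well above background on at least 1 pre-irradiation array.

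**Figure D3:**
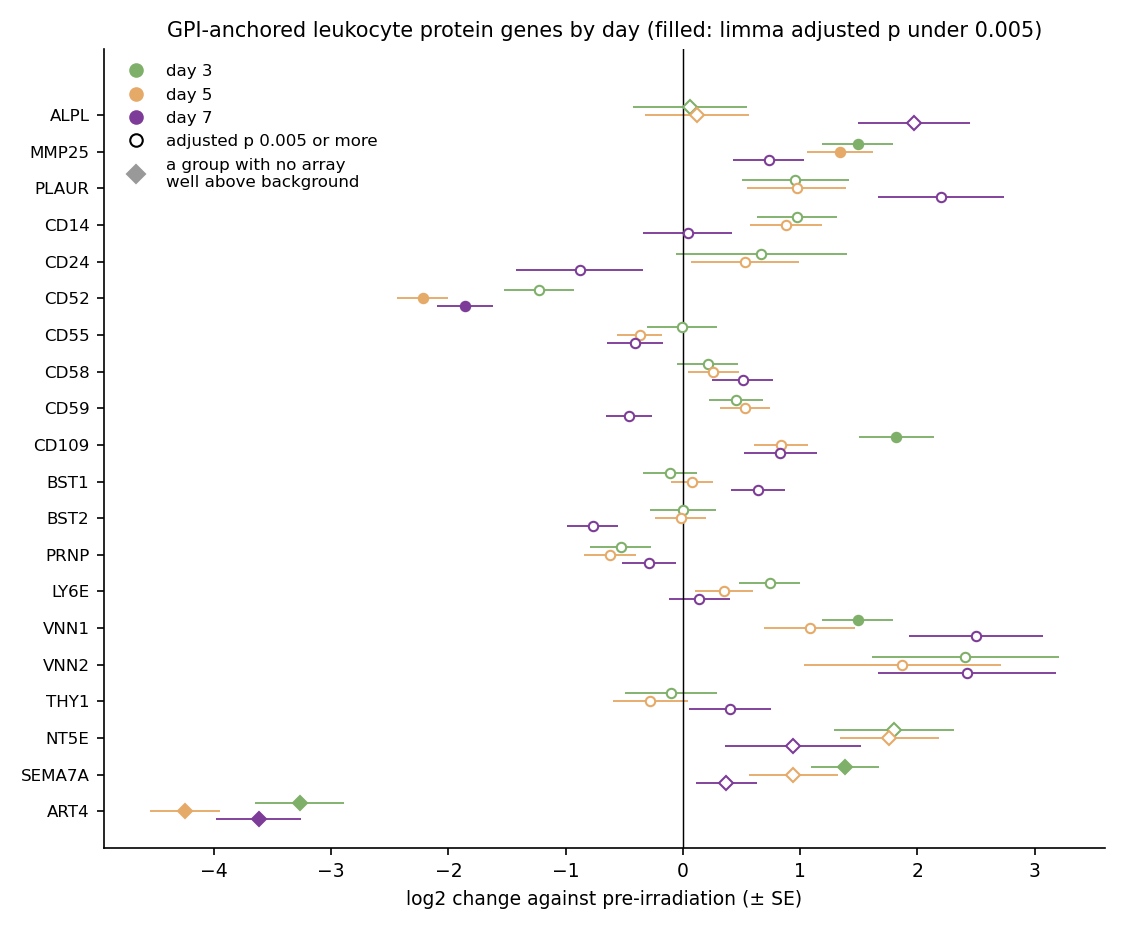
Log2 change against pre-irradiation (horizontal axis, ± SE) of the 20 genes of GPI-anchored leukocyte proteins tested, by day. Filled points passed an adjusted p under 0.005 in limma. Diamonds mark values where 1 or both groups had no array well above background, so that the size is not measured, as for ART4 on each day. The day 7 points of VNN1 (2.50), VNN2 (2.42) and PLAUR (2.2) lie to the right and are open.

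The genes whose levels were most like those of each carbonic anhydrase were ranked by Pearson's r over the 24 arrays, among named genes tested. These correlations are descriptions across arrays that share groups, slides and animals, and r is also given after the group means were removed. For CA2 the first was NCOA4, the receptor that delivers ferritin to autophagy, with r = 0.966 and 0.901 with group means removed. BNIP3L, which marks mitochondria for removal in maturing red cells, had r = 0.925 and 0.807, and MPP1, a palmitoylated protein of the red cell membrane, 0.930 and 0.734. MOB1B (0.938), ADGRG6 (0.929), GABARAPL2 (0.924), YOD1 (0.919), RAP1A (0.916), UBB (0.915) and URB1 (0.909) completed the first 10.

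For CA4 the first was VNN1, at 0.899 and 0.826 with group means removed. S100A12, a calcium-binding protein of neutrophils, followed at 0.885 and 0.723, and LCN2, the iron-siderophore-binding lipocalin of neutrophil granules, at 0.870 and 0.703. MMP9, gelatinase B of tertiary granules, was at 0.831 and 0.670. The others were LARP1B (0.859), TMEM120A (0.856), TRPM2 (0.849), RRP12 (0.843), CLPS (0.830) and last F12. Of these, S100A12 was called higher at day 7 (2.65, and 2.84 without animal 4), and LCN2 at days 5 and 7 (1.87 and 3.05, the latter 3.34 without animal 4). MMP9, not called with all arrays, was called at day 7 without animal 4 (2.02).

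For CA1 the first 10 were GMDS (0.933), GSTO2 (0.929), SLC4A1 (0.923), DMTN (0.922), CXCR5 (0.921), ART4 (0.921), BPGM (0.921), FGB (0.915), TRIM10 (0.913) and IFRD2 (0.912). SLC4A1, DMTN, ART4, BPGM and TRIM10 are red cell genes, whereas CXCR5 is a chemokine receptor of B cells. With group means removed these 10 correlations lay between 0.434 and 0.654, lower than over all arrays, and CA1 itself was well above background on 7 of 24 arrays. CA1 and CA2 correlated at 0.802, and at 0.357 with group means removed. CA2 and CA4 correlated at −0.815, and at −0.472 with group means removed.

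Counts of blood cell type markers are to be read against all named genes. Of these, 5.96%, 6.24% and 2.67% were higher and 7.58%, 9.12% and 7.18% lower at days 3, 5 and 7. Of 22 red cell and reticulocyte genes tested, 14, 17 and 18 were lower on these days and none was called higher. Before irradiation their summed normalized signal ran from 5.55e+05 to 1.14e+06. It ran from 5.36e+04 to 1.3e+05 on day 3, from 1.98e+04 to 3.83e+04 on day 5 and from 2.21e+04 to 3e+05 on day 7. The mean level of that list correlated with CA2 at 0.888 (0.699 with group means removed) and with CA1 at 0.898 (0.572). For the B cell genes the values were 0.807 (0.275) with CA2 and 0.89 (0.047) with CA1, so that r over all arrays is not particular to red cell genes. From day 5 to day 7 the mean level of the red cell list differed by −0.99 to 3.22 over the 6 animals sampled on both days, with a median of 0.05. It was higher in 4 of the 6, whereas CA2 was lower in 5 of 6.

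Of 17 mature neutrophil genes tested, 16 of which were well above background on every array, 2, 4 and 3 were higher at days 3, 5 and 7, against 5.96%, 6.24% and 2.67% of all named genes, and none was lower. Their median change was 0.93, 0.98 and 0.66, and their summed signal before irradiation ran from 2.31e+05 to 4.84e+05. The sums were 4.51e+05 to 1.12e+06 on day 3, then 4.6e+05 to 8.63e+05 on day 5 and 3.45e+05 to 8.26e+05 on day 7. Of 17 neutrophil granule genes tested, 1 was higher on each day, close to the share of all named genes at days 3 and 5, and 2, 4 and 3 were lower, against 7.58%, 9.12% and 7.18%. Without animal 4 the day 7 counts were 3 higher (LCN2, MMP8 and MMP9) and 2 lower, and MMP8 was well above background on no pre-irradiation array. CA4 correlated with the mean of the mature neutrophil genes at 0.648 (0.764 with group means removed) and with that of the granule genes at 0.312 (0.701). From day 5 to day 7 the mean of the mature neutrophil genes was higher in 1 of 6 animals, with a median difference of −0.22 (−0.66 to 0.09), and that of the granule genes in 4 of 6, with a median of 0.20 (−0.19 to 1.30, the highest in animal 7). Over the same days CA4 was higher in 6 of 6, with a median of 2.54, and animal 7 had its largest rise too.

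The other lists are short beside the 5.96%, 6.24% and 2.67% of all named genes called higher, so that a count of 1 is not read as a difference from them. Of 6 endothelial genes tested, 1 was higher at day 3 and none at days 5 and 7, and CDH5, EMCN and KDR were too dim to test. Of 10 monocyte genes, 4, 4 and 1 were higher, and of 11 platelet genes 11, 3 and 0. The platelet genes GP1BA and ITGB3, counted at day 3 here and with animals blocked, were well above background on no pre-irradiation array. They were tested only because later arrays exceeded background, so that nothing is read from their calls. B cell genes were lower (9, 9 and 8 of 9), as were 3 of 14 T and NK cell genes at day 3. No eosinophil, basophil or mast cell gene of 8 was called. Without animal 4 the day 7 counts were 2 for monocyte genes and 19 for red cell genes and the same as with it for the mature neutrophil, platelet, B cell, T and NK cell, endothelial and eosinophil, basophil and mast cell lists. When animals were blocked, 1.53%, 5.41% and 2.12% of all named genes were higher and 1.93%, 8.82% and 6% lower. In that fit 12, 17 and 16 red cell genes were lower and 0, 3 and 2 mature neutrophil genes higher on the 3 days. The block also gave 2, 3 and 0 monocyte genes and 9, 5 and 0 platelet genes higher, and 0, 1 and 0 T and NK cell genes lower. Of the granule genes 0, 1 and 2 were then higher and 1, 4 and 3 lower. With it 2 endothelial genes were higher at day 3, 1 was higher and 1 lower at day 5 and 1 was lower at day 7, and CPA3 and GATA2 of the mast cell and basophil list were lower at day 7. The part of cell numbers in the changes of CA1, CA2 and CA4 was not tested.

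**Figure D4:**
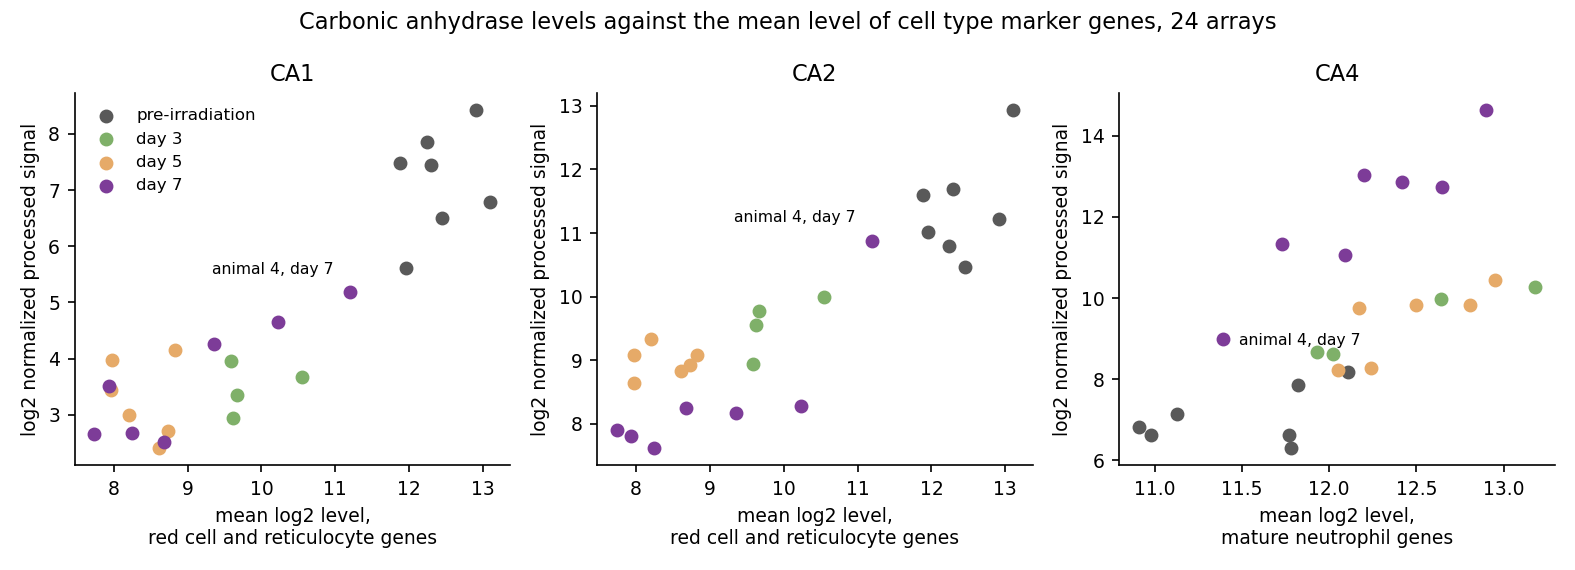
Log2 normalized signal of CA1, CA2 and CA4 (vertical axes) against the mean log2 level of red cell and reticulocyte genes (CA1, CA2) or mature neutrophil genes (CA4) on the 24 arrays, coloured by group. The day 7 array of animal 4 lies nearest to the pre-irradiation arrays for CA2 (10.88 at a red cell mean of 11.20), and at like neutrophil means the other day 7 points of CA4 lie above those of days 3 and 5. Most CA1 points after irradiation are not well above background.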

How the data were processed

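Whole-blood RNA was measured on 24 one-colour arrays. The authors' scanner output, made with Agilent Feature Extraction (version 10.7 per the labels), holds each spot's processed signal, a linear intensity from which the scanner software had subtracted local background. The authors' deposited matrix of normalized values is on the log2 scale (18497 rows matched to probes) and served as an alternative. The study's methods name a human array, whereas the scanner output names a rhesus design.

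Here flagged spots were left out, the processed signal was taken to log2, spots of 1 probe were averaged and each array was shifted to the median array (shifts −0.87 to 2.03). Tests covered the 27133 probes that were well above background on 4 or more arrays. The scanner output named 23054 of the 43603 probes, and 898 more were named by accession. limma 3.58.1 in R 4.3.3 compared each day with pre-irradiation (two-sided, p adjusted by Benjamini-Hochberg over every probe in the fit, threshold 0.005) and, at day 7, the change between the sexes (under 0.05). In simulated day 7 data the fit recovered 18%, 72%, 94% and 100% of log2 shifts of 1, 2, 3 and 5, with 1 false call. A missing call therefore does not show that a gene was unchanged. Summaries and figures were made with Python 3.11.15 (pandas 2.3.3, numpy 2.4.6, matplotlib 3.10.9). A gene's brightest probe represents it.

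From each list the called genes with the largest changes, up to 4 a day, and AQP1, RHAG, SLC4A1, BPGM, SLC4A7 and HVCN1 are named, with the 10 genes most like each carbonic anhydrase. Others are named where a count or a value near the threshold asked for it. The genes and lists were chosen with earlier results of these data known.

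Replicate numbers were taken as animals: after group means were removed, pairs of arrays with 1 number had r of 0.133 to 0.409 (day 3, 4 pairs), 0.171 to 0.458 (day 5, 6 pairs) and 0.129 to 0.440 (day 7, 7 pairs), with medians of −0.054, −0.068 and −0.052 for other numbers. Alternatives concerned normalization, background, filter, flagged spots, threshold, blocks for slide, scan session and animal, and arrays left out.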

Additional observations from a re-analysis of the deposited data

Results flagged for a closer look

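The CA2 level of animal 4 at day 7, 10.88 on the log2 scale, stood apart from the other 6 day 7 arrays, the nearest of which was at 8.27. Its gap was 0.796 of the range of the group, above Dixon's 95% critical value. Of 12 groups of arrays checked (3 genes, 4 times), 1 was set apart in this way, and chance alone sets apart about 1 in 20. The same array had the lowest CA4 level of day 7 (8.99). Its red cell gene mean was 11.20 against 7.74 to 10.23 on the other day 7 arrays, and its mature neutrophil gene mean 11.39 against 11.73 to 12.90. Its CA1 level, 5.18, was not well above background, so that the rank of that level is not measured.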

How the results depend on the processing

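The direction of the CA1, CA2 and CA4 changes was the same under every alternative run, and the sizes depended on the background correction with its offset. Those of CA1 set dim signals against each other and are no measured sizes. With a normexp background CA1 was −0.79, −0.31 and −1.18 at days 3, 5 and 7 and CA4 was 0.25 and 1.19 at days 3 and 5. With the scan session as a block, which leaves pre-irradiation animal 5 alone to compare with days 3 and 5, CA1 was −4.93 and −5.14 and CA4 at day 3 was 1.53, and with the slide as a block CA1 and CA4 at day 3 were −4.76 and 1.47. Leaving out 1 animal at a time gave −3.93 to −3.46, −4.16 to −3.59 and −3.73 to −3.22 for CA1, −2.12 to −1.57, −2.58 to −2.17 and −3.36 to −2.62 for CA2, and 1.98 to 2.50, 2.06 to 2.72 and 4.52 to 5.40 for CA4 at days 3, 5 and 7. Without the day 7 array of animal 4 alone, an alternative chosen after seeing the data, the day 7 values were −3.78, −3.39 and 5.53. The authors' values hold CA2 and CA4 and not CA1, and an alternative with other probes could not be run, as each gene has 1.

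The count of carbon dioxide handling genes at day 3 (8) was 4 in a single fit of 4 groups, 4 with the replicate block (the animal), 16 at an adjusted p under 0.05, 2 with normexp and 0 with the session or slide block. At day 5 (13) it was 5 with normexp and 6 with the session block, and at day 7 (8) it was 14 at an adjusted p under 0.05 and 4 with normexp. Leaving out 1 animal gave 3 to 8, 10 to 12 and 4 to 8, and the day 7 count was 12 without the day 7 array of animal 4 alone. The count of GPI-anchored genes at day 3 (5) was 10 at 0.05, 3 with the authors' values, 2 with no filter, 1 with the replicate block and 0 with normexp or the session or slide block. At day 5 (3) it was 5 with the 75th percentile, 8 at 0.05 and 1 with normexp. At day 7 (2) it was 4 in the single fit, with the stricter filter or with the replicate block, 7 at 0.05, 0 with normexp and 5 without the day 7 array of animal 4. Leaving out 1 animal gave 1 to 5, 2 to 4 and 2 to 5. The replicate block changed no other count of these lists at days 3, 5 and 7 by over 1.5 times, and single calls it changed stand beside the genes. The slide block could not be fitted at day 5, where no slide holds both groups. The cause of these shifts was not tested.

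The sex difference at day 7 ran from −0.96 to 0.51 for CA2, −0.72 to 1.83 for CA4 and −2.37 to −1.58 for CA1 when 1 animal was left out. Without the day 7 array of animal 4 alone it was 0.54, −0.23 and −1.51. With a normexp background it was −0.29 for CA2, 1.27 for CA4 and −0.6 for CA1. The CA1 values rest mostly on day 7 signals not well above background. No alternative brought a call.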
